A study of Mus musculus with 6 samples.

Results

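The members of the sodium pump's β and FXYD gene families that were followed in single-cell RNA sequencing (scRNA-seq) of sorted amygdala cells were *Atp1b1*, *Atp1b2*, *Atp1b3*, *Fxyd1*, *Fxyd5* and *Fxyd6*, 6 of the 32285 genes counted. They were chosen by name. Their levels were read in 2 cell classes set by other genes. Astrocytes had at least 20 unique molecular identifiers (UMIs, each standing for 1 captured RNA molecule) of the glutamate transporter genes *Slc1a2* and *Slc1a3* together and at most 3 of the pericyte genes *Vtn* and *Rgs5*. Pericytes, the contractile cells that wrap capillaries, had at least 10 UMIs of *Vtn* and *Rgs5* and at most 5 of *Slc1a2* and *Slc1a3*. Of 13546 barcodes in 3 libraries, 8757 were astrocytes and 2260 were pericytes by this rule.

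The study asked which astrocytes respond to fear learning and recall. The 16 mice listed with a hashtag were young adult wild-type C57BL/6N mice, male by the sample labels, that had been habituated to the chamber. They formed 4 groups of 4. NoFC mice were not shocked, and FC mice were fear conditioned with foot shocks. NoFR mice were conditioned and stayed in the home cage on the next day. FR mice were conditioned and put back into the chamber on the next day for recall. Amygdalae were dissociated with papain in the presence of the transcription and translation blockers actinomycin D, triptolide and anisomycin, and cells were stained with antibodies to CD11b, CD45, O1 and ACSA-2 and with a hashtag antibody per mouse, sorted, pooled and sequenced. The ACSA-2 antigen is the protein of *Atp1b2*, so *Atp1b2* is at the same time a member and the gene whose protein was stained for the sort.

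The sodium pump, or Na,K-ATPase, moves sodium out of the cell and potassium into it at the cost of ATP. Its α subunit carries the catalytic work, its β subunit is a glycoprotein needed for the folding, export and surface stability of α, and a small FXYD protein can join the complex and tune its affinity for ions. In astrocytes the pump clears the potassium released by active neurons and sustains the sodium gradient that drives glutamate uptake. *Atp1b1*, *Atp1b2* and *Atp1b3* encode the β1, β2 and β3 subunits, β2 being also known as the adhesion molecule on glia. *Fxyd1* encodes phospholemman, *Fxyd5* encodes dysadherin and *Fxyd6* encodes phosphohippolin.

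The members lay on 4 chromosomes of GRCm38 in the GENCODE vM21 annotation. *Atp1b1* (ENSMUSG00000026576) covered chr1:164437109-164458355 on the reverse strand and overlapped *Nme7* on the other strand. *Atp1b2* (ENSMUSG00000041329) covered chr11:69599736-69605942 on the reverse strand. *Atp1b3* (ENSMUSG00000032412) covered chr9:96332655-96364442 on the reverse strand. *Fxyd1* (ENSMUSG00000036570, chr7:31051678-31057199) and *Fxyd5* (ENSMUSG00000009687, chr7:31032722-31042481) both lay on the reverse strand of chromosome 7. *Mir7050* overlapped *Fxyd5* on the same strand. Genes between *Fxyd1* and *Fxyd5* were not looked for. *Fxyd6* (ENSMUSG00000066705) covered chr9:45370185-45396159 on the forward strand.

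RefSeq promoter windows of GRCm38.p6 matched 5 of the 6 members. The 250 bases before the start are printed for *Atp1b1* and *Atp1b3*, the β genes whose levels differed in opposite directions between the classes. They are also printed for *Fxyd1* and *Fxyd5*, both on chromosome 7, whose levels did the same. Capitals mark GC boxes, the letters GGGCGG or, on the other strand, CCGCCC, which 32.7% of 32851 promoter windows of this length held. A TATA box, taken as exactly TATAAA or TTTATA on the other strand, was held by 12.4% of them and by none of these 4 windows. Variants were not searched for, such as the letters TATATA near the end of the *Atp1b1* window.

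Atp1b1 (chr1:164458356-164458605, reverse strand): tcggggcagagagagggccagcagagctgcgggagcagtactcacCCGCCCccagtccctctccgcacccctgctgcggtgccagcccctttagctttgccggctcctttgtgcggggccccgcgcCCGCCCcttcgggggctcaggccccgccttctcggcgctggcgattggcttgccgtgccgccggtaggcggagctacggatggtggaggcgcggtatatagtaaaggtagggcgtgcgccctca

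Atp1b3 (chr9:96364432-96364681, reverse strand): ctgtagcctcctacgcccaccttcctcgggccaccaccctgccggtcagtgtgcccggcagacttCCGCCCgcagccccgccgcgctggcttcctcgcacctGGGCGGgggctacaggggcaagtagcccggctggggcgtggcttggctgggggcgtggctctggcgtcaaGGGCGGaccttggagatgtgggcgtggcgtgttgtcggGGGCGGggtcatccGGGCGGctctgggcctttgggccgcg

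Fxyd1 (chr7:31054854-31055103, reverse strand): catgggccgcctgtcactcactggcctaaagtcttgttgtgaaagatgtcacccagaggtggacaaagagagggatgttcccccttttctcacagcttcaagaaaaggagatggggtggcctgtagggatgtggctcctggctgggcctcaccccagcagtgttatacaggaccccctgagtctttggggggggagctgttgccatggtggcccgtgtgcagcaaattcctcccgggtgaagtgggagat

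Fxyd5 (chr7:31042332-31042581, reverse strand): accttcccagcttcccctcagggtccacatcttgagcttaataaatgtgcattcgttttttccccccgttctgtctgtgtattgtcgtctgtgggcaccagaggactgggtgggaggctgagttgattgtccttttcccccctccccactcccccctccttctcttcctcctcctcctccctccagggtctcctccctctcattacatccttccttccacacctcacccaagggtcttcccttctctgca

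The *Atp1b1* window held 2 GC boxes and the *Atp1b3* window 5, whereas the *Fxyd1* and *Fxyd5* windows held 0. GC content was 70.4%, 73.6%, 57.2% and 55.6% in the order printed, and 52.4% over all windows. The *Fxyd1* start used by RefSeq lay 2346 bases inside the GENCODE gene model. A second *Atp1b3* start, 727 bases inside its gene model, is not printed.

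The UMI rule gave classes that carried their own markers. Summed over 6 astrocyte markers, astrocytes had 6806 to 6821 counts per 1000000 UMIs (CPM) in the 3 libraries and pericytes 56.5 to 91.0. Summed over 6 pericyte markers, pericytes had 7487 to 7717 CPM and astrocytes 112.8 to 124.5. Astrocytes had a median of 9667, 10281 and 9832 UMIs in libraries 1, 2 and 3, and pericytes 4833, 5205.5 and 5028.5, so that a level in CPM and a number of UMIs per cell can order the classes differently. Of the pericytes, 40.6% to 44.0% had 3 or more UMIs of endothelial, fibroblast, smooth muscle, oligodendrocyte, microglia or neuron markers, against 5.29% to 5.82% of astrocytes. Between 3 and 8 barcodes were shared by each pair of libraries.

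In astrocytes against pericytes, *Atp1b1*, *Atp1b2* and *Fxyd1* were higher in astrocytes, and *Atp1b3* and *Fxyd5* were higher in pericytes. *Fxyd6* was also called higher in pericytes, but this call was lost in 6 other settings. The test was edgeR's quasi-likelihood test on UMIs summed by library and class, with the library as a block and Benjamini-Hochberg adjustment over 15361 genes. Every barcode of a class entered these sums, with or without the hashtag of a listed mouse. Of all genes tested, 42.8% were called higher in astrocytes and 36.9% higher in pericytes at an adjusted p of 0.05, so a call by itself does not set a member apart and the size of each difference is what is described. The median log2 fold change of all genes was 0.10 with TMM normalization and -0.12 with library sizes alone, and the directions of the 6 members were the same with both.

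*Atp1b2* was the most abundant β transcript in both classes. Astrocytes had 788, 843 and 819 CPM in libraries 1, 2 and 3, and pericytes had 668, 666 and 696 CPM. Every astrocyte sum lay above every pericyte sum, but by little. The mean was 816.8 ± 27.3 CPM in astrocytes and 676.5 ± 17.3 CPM in pericytes (SD, n = 3 libraries), a 1.21-fold difference, and the log2 fold change was 0.48 with a standard error (SE) of 0.05 (edgeR quasi-likelihood adjusted p = 2.2e-09), or 0.26 with library sizes alone. Per cell the difference was larger, at 8.56 UMIs in astrocytes and 3.51 in pericytes, 2.44-fold. At least 1 *Atp1b2* UMI was found in 91.0%, 90.6% and 89.2% of astrocytes and in 92.3%, 90.7% and 92.7% of pericytes. With each cell thinned to 2000 UMIs the shares were 71.1%, 72.3% and 71.6% of astrocytes and 73.0%, 69.0% and 72.3% of pericytes, which did not separate the classes. In these sorted cells the transcript of the sort antigen was measured at a like share of UMIs in both classes. The part of the ACSA-2 stain in the presence of pericytes, and in their *Atp1b2* level, was not tested.

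*Atp1b1*, the β1 subunit gene, was the member most enriched in astrocytes. Its level was 68.2, 59.5 and 58.4 CPM in astrocytes of libraries 1, 2 and 3 and 5.66, 6.50 and 9.39 CPM in pericytes. The groups did not overlap. The means were 62.1 ± 5.38 and 7.18 ± 1.96 CPM (SD, n = 3 libraries), 8.64-fold higher in astrocytes, with a log2 fold change of 3.34 (SE 0.12, edgeR adjusted p = 2.2e-19). It was 4.37 without the barcodes that held 3 or more UMIs of other cell types' markers. The share of cells with an *Atp1b1* UMI was 34.0%, 32.4% and 30.5% in astrocytes and 1.93%, 1.81% and 3.21% in pericytes, and 10.998%, 10.0% and 10.1% against 0.581%, 1.07% and 0.999% after thinning to 2000 UMIs. RNA free in the suspension can add UMIs of astrocyte genes to pericytes. The pericyte level of *Atp1b1* was 11.6% of its astrocyte level. The astrocyte markers summed came to 1.00%, and the astrocyte transporters *Slc4a4* and *Slc6a11* to 0.812% and 1.54%. The part of free RNA in the pericyte level of *Atp1b1* was not tested. That level was higher in pericytes with more smooth muscle marker UMIs, as described below.

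*Atp1b3*, the β3 subunit gene, had the opposite order. Astrocytes had 35.2, 36.2 and 35.1 CPM and pericytes 144, 138 and 131 CPM, without overlap. The pericyte mean of 137.5 ± 6.43 CPM was 3.87-fold that of 35.5 ± 0.595 CPM in astrocytes (SD, n = 3 libraries), and the log2 fold change was -1.74 (SE 0.06, edgeR adjusted p = 2.3e-20). Pericytes also had more *Atp1b3* UMIs per cell despite their smaller totals, 0.712 against 0.372. A UMI was found in 26.7%, 28.7% and 27.2% of astrocytes and in 48.1%, 50.0% and 45.4% of pericytes.

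*Fxyd1* (phospholemman) dominated the FXYD members. Its level was 257, 265 and 251 CPM in astrocytes and 132, 121 and 131 CPM in pericytes. All astrocyte values exceeded all pericyte values. The means of 257.7 ± 6.87 and 128.0 ± 5.87 CPM (SD, n = 3 libraries) differed 2.01-fold, with a log2 fold change of 1.22 (SE 0.06, edgeR adjusted p = 5.0e-17). The share of cells with a UMI was 77.6%, 76.9% and 75.5% in astrocytes and 36.6%, 35.5% and 36.2% in pericytes. Per cell, astrocytes had 2.70 *Fxyd1* UMIs and pericytes 0.663, a 4.07-fold difference.

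*Fxyd5* (dysadherin) was counted mostly in pericytes. Over the 3 libraries, 226 UMIs were counted in 2260 pericytes and 19 in 8757 astrocytes. Pericytes had 18.8, 18.7 and 20.7 CPM and astrocytes 0.356, 0.0737 and 0.144 CPM, the latter from 13, 2 and 4 UMIs. The log2 fold change was -6.32 (SE 0.32, edgeR adjusted p = 3.9e-16), and -7.18 without library 1, which held 13 of the 19 astrocyte UMIs. The astrocyte level was 0.988% of the pericyte level, beside 1.54% for the summed pericyte markers. Of the 19 astrocyte UMIs, 6 lay in 1 cell of a subcluster of 16 astrocytes led by the interferon-induced genes *Iigp1*, *Oasl2* and *Ifit1*. A *Fxyd5* UMI was found in 6.36%, 8.43% and 7.12% of pericytes and in 0.197%, 0.0799% and 0.0371% of astrocytes.

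*Fxyd6* (phosphohippolin) was low in both classes, with 2.91, 2.14 and 2.34 CPM in astrocytes and 4.98, 3.39 and 5.10 CPM in pericytes. The log2 fold change was -0.65 (SE 0.28, edgeR adjusted p = 0.036). The adjusted p was 0.14 with DESeq2 and between 0.051 and 0.17 with a library left out, and the order of the classes is not described further. Only 229 UMIs in astrocytes and 53 in pericytes were behind these values.

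**Figure D1:**
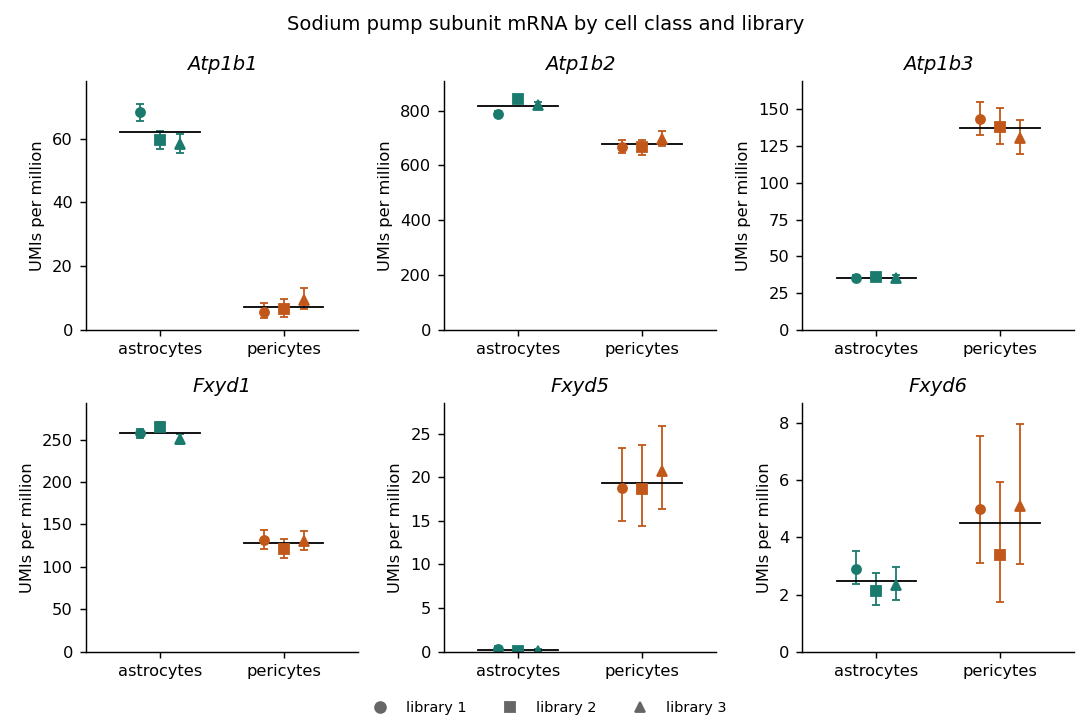
Level of each member in CPM (axes from 0, one scale per member) in astrocytes and pericytes, with a point for each of the 3 libraries, its 95% Poisson interval as bars and a line at the mean. *Atp1b1* lies near 60 CPM in astrocytes and below 10 in pericytes, *Fxyd5* near 20 CPM in pericytes and below 1 in astrocytes, and *Atp1b2* at 666 to 843 CPM in both.

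The same order was found within mice. In the 16 mice assigned by hashtag, each with at least 38 cells of either class, astrocytes were higher than pericytes of the same mouse in 16 of 16 mice for *Atp1b1*, *Atp1b2* and *Fxyd1*. Pericytes were higher in 16 of 16 mice for *Atp1b3* and *Fxyd5*. Each of these 5 comparisons had p = 3.1e-05 in a 2-sided exact permutation test over the signs of the differences, the smallest p that 16 mice can give. For *Fxyd6*, astrocytes were higher in 6 mice and pericytes in 8 (exact permutation p = 0.745). *Atp1b2* ranged from 723 to 921 CPM in astrocytes (median 819) and from 596 to 785 CPM in pericytes (median 665), so that the ranges of different mice overlapped although no mouse reversed the order.

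The β subunits were mixed in different proportions. Of the *Atp1b1*, *Atp1b2* and *Atp1b3* UMIs of astrocytes, *Atp1b2* made up 89.3 ± 0.795%, *Atp1b1* 6.80 ± 0.739% and *Atp1b3* 3.88 ± 0.0564% (SD, n = 3 libraries). In pericytes *Atp1b2* made up 82.4 ± 0.786%, *Atp1b1* 0.873 ± 0.223% and *Atp1b3* 16.8 ± 1.01%. The next most frequent β transcript was thus *Atp1b1* in astrocytes and *Atp1b3* in pericytes. Within mice the *Atp1b2* share was 7.10 percentage points higher in astrocytes, the *Atp1b1* share 5.50 points higher and the *Atp1b3* share 12.6 points higher in pericytes, each in 16 of 16 mice (exact permutation p = 3.1e-05). These shares are of 3′ UMIs and need no scaling between the classes. They are of cells sorted after a stain for the *Atp1b2* protein, and the part of that sort in the *Atp1b2* shares was not tested.

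Among *Fxyd1*, *Fxyd5* and *Fxyd6*, *Fxyd1* made up 98.98 ± 0.215% of UMIs in astrocytes and 84.3 ± 0.663% in pericytes (SD, n = 3 libraries). *Fxyd5* contributed 0.0737 ± 0.0566% in astrocytes and 12.8 ± 0.613% in pericytes. Both differences had the same direction in 16 of 16 mice (exact permutation p = 3.1e-05). The *Fxyd6* share, 0.946 ± 0.159% in astrocytes and 2.94 ± 0.498% in pericytes, was higher in pericytes in 10 of 16 mice (exact permutation p = 0.108). Other FXYD genes are outside these shares, among them *Fxyd7*, with 465 UMIs in astrocytes against 229 of *Fxyd6*.

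**Figure D2:**
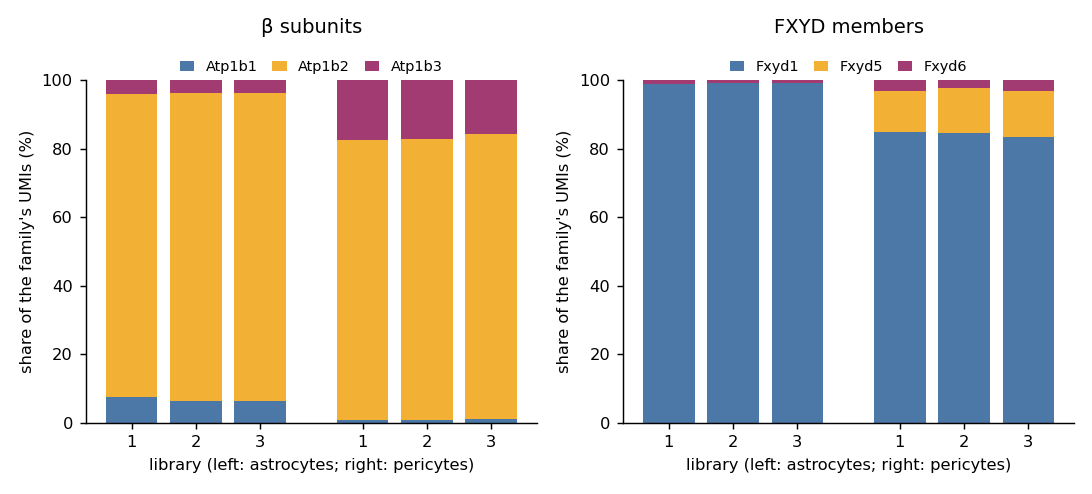
Share (percent) of β subunit UMIs and of FXYD member UMIs given by each member, with a stacked bar for astrocytes and pericytes of each of the 3 libraries. *Atp1b3* takes 15.6% to 17.6% of the β UMIs in pericytes and 3.85% to 3.95% in astrocytes.

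The other genes of the pump differed between the classes as well. Of 13 further genes for α subunits, FXYD proteins and the β-interacting Nkain proteins, 11 passed the filter on low counts. Of these, 7 were called higher in astrocytes and 3 higher in pericytes, beside 42.8% and 36.9% of all genes tested. Their median log2 fold change was 2.67, against 0.10 for all genes. *Atp1a4*, the α4 subunit gene, was among those higher in pericytes but was rarely counted (4 UMIs in astrocytes). *Nkain2* and *Nkain4* had 257 and 329 CPM in astrocytes and 4.15 and 2.38 CPM in pericytes. *Fxyd7* and *Nkain3* were higher in astrocytes at 5.09 and 1.29 CPM. *Fxyd3* and *Nkain1* had 129 and 208 UMIs in astrocytes and 0 in pericytes. *Fxyd2* did not pass (edgeR adjusted p = 0.20), and *Atp1b4* and *Fxyd4* were not tested.

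Of 11 sodium-coupled transporter genes, 7 were called higher in astrocytes and 4 in pericytes, beside 42.8% and 36.9% of all genes tested. The median log2 fold change was 2.97, against 0.10 for all genes. *Slc4a4*, the sodium bicarbonate cotransporter, had 2161 ± 13.5 CPM in astrocytes, and the GABA transporter *Slc6a11* had 544 ± 23.9 CPM. The glutamine transporter *Slc38a3*, the phosphate transporters *Slc20a1* and *Slc20a2* and the sodium calcium exchanger *Slc8a3* were also higher in astrocytes. Pericytes had more *Slc12a2*, the sodium potassium chloride cotransporter NKCC1, with 754.8 ± 46.8 against 20.5 ± 0.825 CPM. The sodium calcium exchangers *Slc8a1* and *Slc8a2* were also higher in pericytes.

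The members varied among astrocytes. Clustering of the 8757 astrocytes without the 6 members gave 9 subclusters, called here by number and leading genes, and levels in them are a description of the cells clustered. *Atp1b2* was 932 ± 41.2 CPM in subcluster 1 (*Gdf10*, 3115 cells), 952 ± 36.6 in subcluster 3 (*Nupr1* and *Lmo1*, 1523 cells), 1006 ± 44.4 in subcluster 4 (*Nkx6-2*, *Igsf1* and *Gria1*, 1366 cells) and 978 ± 94.96 in subcluster 5 (*Nrn1*, *Lyn* and *Zic2*, 501 cells; SD over 3 libraries). In each of the 3 libraries it was higher in subcluster 4, at 960.0, 1009 and 1049 CPM, than in subcluster 1, at 885, 962 and 949 CPM, or subcluster 3, at 910.4, 978 and 968 CPM. Subcluster 5 had 886, 1075 and 973 CPM. The order did not carry over to a coarser clustering (resolution 0.2). There the subcluster led by *Nkx6-2* had 897, 960 and 983 CPM of *Atp1b2* in libraries 1, 2 and 3. The largest, led by *Igfbp2*, had 906, 999.9 and 971 CPM. In subcluster 2 (*Zbtb16*, 1600 cells) of the main clustering, *Atp1b2* was 243 ± 12.7 CPM, and 253, 248 and 229 CPM in the single libraries. That subcluster had a median of 8501 UMIs and 2.41% mitochondrial UMIs. In subclusters 1, 3, 4 and 5 the medians were 9034 to 11901 UMIs and 1.84% to 2.23%. The part of depth and mitochondrial RNA in the levels of subcluster 2 was not tested. Of its cells, 65.8% had an *Atp1b2* UMI, against 99.4% or more in subclusters 1, 3, 4 and 5. *Fxyd1* was low there too, at 52.0 ± 1.55 CPM against 266 to 400 in those 4 subclusters, and so was the astrocyte water channel gene *Aqp4*, at 219 ± 13.2 CPM against 565 to 732.

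*Atp1b1* divided the astrocytes differently. It was 109.8 ± 12.1 CPM in subcluster 3, 77.3 ± 1.79 in subcluster 1 and 61.2 ± 8.85 in subcluster 5, but 19.3 ± 3.42 in subcluster 2 and 11.9 ± 1.26 in subcluster 4. *Atp1b2* and *Fxyd1*, low in subcluster 2, were 1006 ± 44.4 and 284 ± 15.2 CPM in subcluster 4. In single libraries subcluster 4 had 12.5, 10.43 and 12.7 CPM and subcluster 3 had 123, 99.3 and 107 CPM. The 2 subclusters did not overlap, and 9.08% of cells in subcluster 4 had an *Atp1b1* UMI against 55.7% in subcluster 3. *Atp1b3* stayed between 34.8 and 46.5 CPM in subclusters 1, 3, 4 and 5 and was 20.2 ± 0.721 in subcluster 2.

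Subclusters 6 and 7 were shallow. Subcluster 6 (*Scd1*, *Pcsk1n* and *Cryab*, 351 cells) had a median of 2523 UMIs and 6.90% mitochondrial UMIs and held the highest *Fxyd1* level, 665 ± 70.3 CPM, with *Atp1b2* at 1025 ± 259. Subcluster 7 (*Atg4a* and mitochondrial genes, 231 cells) had 1724 UMIs and 16.2% mitochondrial UMIs and held 152 ± 27.2 CPM of *Atp1b2* and 24.04 ± 7.52 of *Fxyd1*. The part of depth and mitochondrial RNA in these levels was not tested. At the edge of the astrocyte rule, cells with 20 to 24 UMIs of *Slc1a2* and *Slc1a3* had 509, 289 and 492 CPM of *Atp1b2* in libraries 1, 2 and 3, and those with 15 to 19 UMIs, outside the rule, had 350.0, 458 and 326 CPM.

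**Figure D3:**
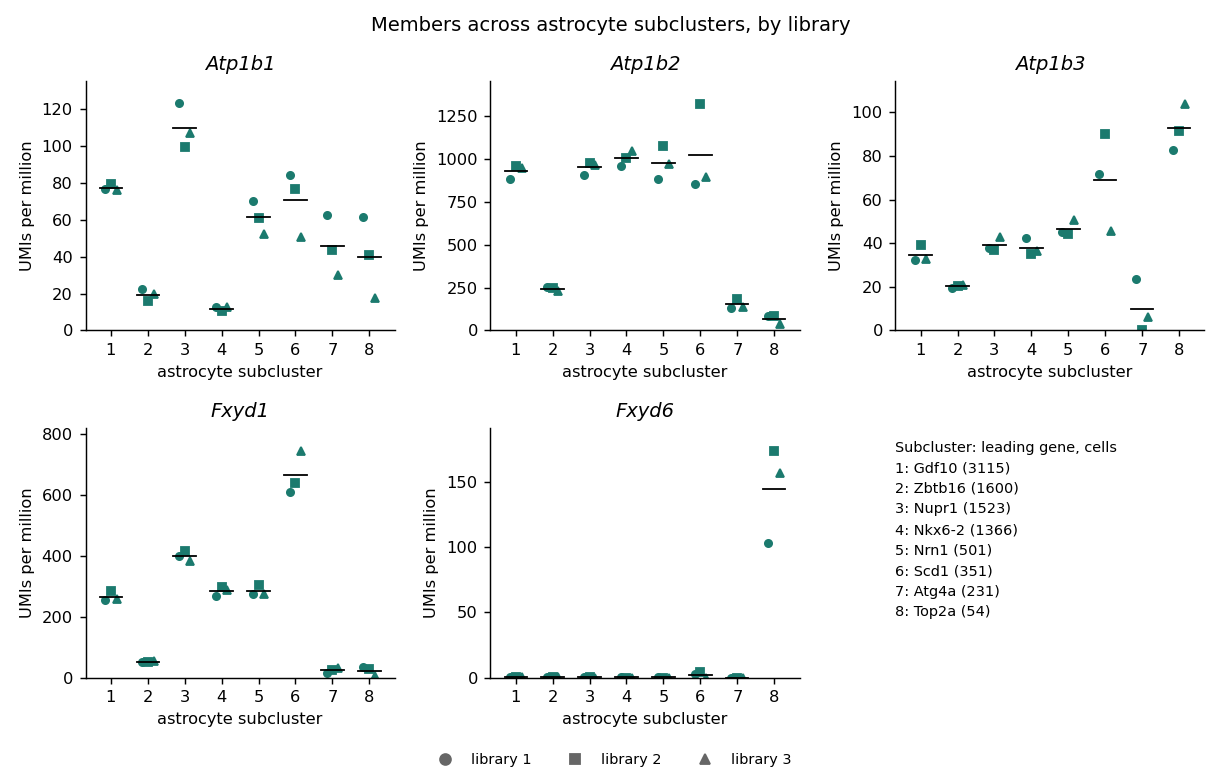
Level of *Atp1b1*, *Atp1b2*, *Atp1b3*, *Fxyd1* and *Fxyd6* in CPM in astrocyte subclusters 1 to 8, with a point for each of the 3 libraries and a line at their mean. *Atp1b2* and *Fxyd1* are low in subclusters 2, 7 and 8, *Atp1b1* is low in subclusters 2 and 4, and *Fxyd6* is high in subcluster 8.

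*Fxyd6* UMIs of astrocytes lay mostly in subcluster 8. Subcluster 8, led by the mitotic genes *Top2a*, *Hist1h1b* and *Mki67*, held 54 cells and 86.9% of the 229 *Fxyd6* UMIs of astrocytes. Its *Fxyd6* level was 103, 173 and 157 CPM in libraries 1, 2 and 3, against means of at most 2.32 CPM in each of the other 8 subclusters. In this subcluster *Atp1b2* was 67.3 ± 27.7 CPM, *Fxyd1* was 22.8 ± 15.96, *Atp1b3* was 92.7 ± 10.43 and *Aqp4* was 3.53 ± 3.61 (SD, n = 3 libraries). For *Atp1b3* this was also the highest mean of any subcluster, followed by 69.1 ± 22.2 CPM in subcluster 6. The astrocyte marker *Aqp4* was thus near 0, and the name astrocyte rests there on the UMI rule alone, in cells with a median of 27850 UMIs.

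Counted by cell, 23, 10 and 10 astrocytes of libraries 1, 2 and 3 had 2 or more *Fxyd6* UMIs and held 90.6%, 89.7% and 90.8% of the astrocyte *Fxyd6* UMIs. Genes of dividing and of neural progenitor cells were high in them, a choice of genes made after their values were seen. *Sox11*, a transcription factor of neural progenitors, had 999, 1014 and 2090 CPM, against 20.7, 14.04 and 19.4 in astrocytes without a *Fxyd6* UMI. *Atp1b2* was low in the same cells, at 136, 116 and 41.0 CPM against 800.2, 852 and 829. These cells had medians of 28976, 29828 and 28476.5 UMIs, against 9657, 10253 and 9803 for the others.

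Across single astrocytes, the genes whose pattern was most like that of *Atp1b2* among 5937 genes were *Gja1* (connexin 43), *Apoe* and *Prnp*, with a mean Pearson's r over 3 libraries of 0.74, 0.73 and 0.72. The r is given as a description, since cells of a library share its depth and preparation. Outside the subclusters with under 500 CPM of *Atp1b2*, in 6872 cells, r was 0.39 to 0.43 for *Gja1*, 0.15 to 0.21 for *Apoe* and 0.31 to 0.40 for *Prnp*. A cut on the level of *Atp1b2* itself narrows its range and by that alone lowers r, so nothing is concluded from the lower values. *Fxyd1* was most like *Cst3* (0.64), *Apoe* (0.62) and *Clu* (0.59), with 0.28 to 0.43 over these genes in the same 6872 cells. For *Atp1b1* the values were 0.30 with *Ptn*, 0.26 with *Clu* and 0.26 with *Gstm5*, and for *Atp1b3* the highest was 0.14. *Fxyd5* and *Fxyd6* were found in too few astrocytes for this measure.

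In pericytes, *Atp1b1*, *Fxyd1* and *Fxyd5* moved with the UMIs of smooth muscle markers (*Acta2*, *Tagln*, *Myh11* and *Cnn1*), a split added after the data were seen. *Atp1b1* was 1.29, 2.40 and 4.25 CPM in the 650, 492 and 523 pericytes of libraries 1, 2 and 3 without such a UMI, and 47.1, 38.2 and 44.4 CPM in the 59, 44 and 57 pericytes with 3 or more. *Fxyd1* was 102, 95.9 and 103 CPM without and 288, 239.9 and 339.8 CPM with 3 or more. *Fxyd5* was 9.69, 12.8 and 14.3 CPM without and 99.7, 59.1 and 68.0 CPM with 3 or more. In all 3 members and 3 libraries, pericytes with 1 or 2 such UMIs lay between.

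*Atp1b3* went the other way in size, at 156, 146 and 138 CPM without smooth muscle UMIs and 114, 101 and 112 CPM with 3 or more. *Atp1b2* had 644, 650 and 656 CPM without and 726, 674 and 813 CPM with 3 or more. Endothelial markers gave another picture, with *Fxyd1* at 149.9, 135 and 148 CPM in pericytes without an endothelial UMI and 74.9, 113 and 118 CPM in those with 3 or more. That split for the other members, and a split by fibroblast markers, are not reported here. Fibroblast markers had 225 to 262 CPM in pericytes. Of the pericytes, 12.7% to 16.1% had 3 or more fibroblast marker UMIs, against 6.63% to 7.96% for smooth muscle markers. The whole smooth muscle list had 151 to 209 CPM in pericytes and 0.516 to 0.603 CPM in astrocytes, with *Cnn1* at 0 in 2 of the 3 pericyte libraries. Its part in the class differences was not tested. With every barcode left out that held 3 or more UMIs of any of the other cell types' markers, smooth muscle among them, *Atp1b1* made up 0.482 ± 0.258% of pericyte β UMIs against 0.873 ± 0.223% in all pericytes, and *Atp1b3* 17.8 ± 0.949% against 16.8 ± 1.01%.

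**Figure D4:**
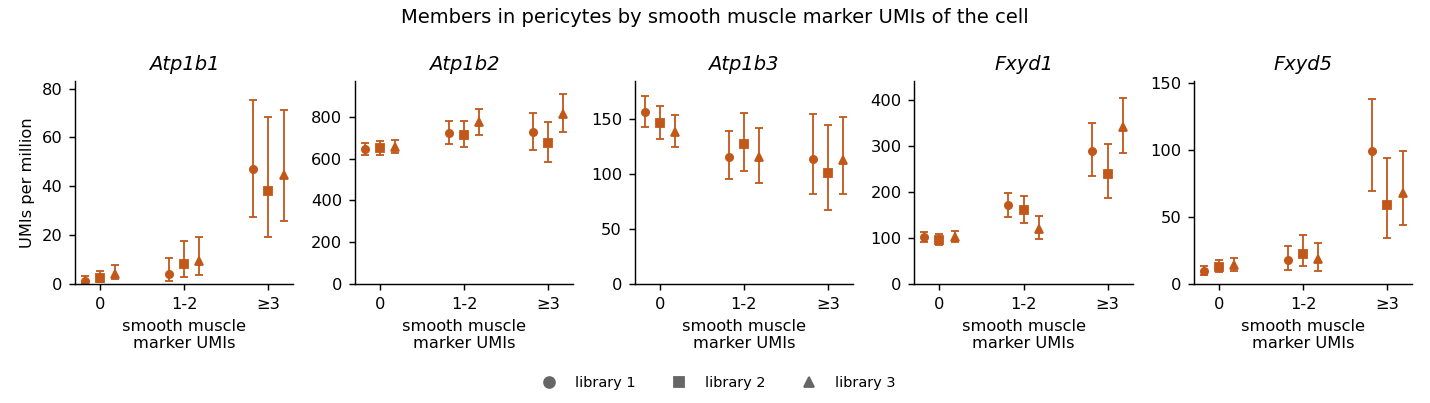
Level of the members other than *Fxyd6* in CPM in pericytes with 0, 1 to 2 and 3 or more UMIs of smooth muscle markers, with a point for each of the 3 libraries and its 95% Poisson interval. *Atp1b1*, *Fxyd1* and *Fxyd5* are higher at each step to the right in each library, and *Atp1b1* goes from 1.29 to 47.1 CPM in library 1.

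Between the groups of mice, no member was called in either class. Astrocytes of each mouse (45 to 228 cells) and pericytes of each mouse (38 to 133 cells) were summed and tested with edgeR's quasi-likelihood test with the library as a covariate. The groups were not balanced over libraries, since library 2 held no NoFR mouse and library 3 no FC mouse. FC and NoFR mice shared library 1 only. Group means in CPM are not adjusted for the library. In astrocytes, 4 members passed the filter on low counts, and their 24 comparisons gave 0 calls and 1 with an unadjusted p under 0.05. The background there was 0% of 10098 genes in each of the 6 pairs of groups. An unadjusted p under 0.05 was held by 331 to 631 of the 10098 genes in a pair. The 631 were for NoFR against NoFC, the pair of the member with such a p. In pericytes, 4 members passed, and their 24 comparisons gave 0 calls and 0 with an unadjusted p under 0.05. The background was 0.974% of 6367 genes for NoFR against NoFC, 0.346% for NoFR against FC, 0.11% for FR against NoFC, 0.0785% for FR against NoFR and 0% for the other 2 pairs. In pericytes, 279 to 570 of the 6367 genes had an unadjusted p under 0.05 in a pair. DESeq2 also called 0 members in either class.

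*Atp1b2* in astrocytes had the smallest unadjusted edgeR p of the members tested. Its level was 729, 815, 823 and 723 CPM in NoFC mice 1 to 4, 824, 758, 867 and 921 CPM in FC mice, 814, 908, 881 and 847 CPM in NoFR mice and 830.4, 778, 794 and 799 CPM in FR mice. The means were 773 ± 53.8, 843 ± 69.0, 863 ± 41.1 and 800.2 ± 22.0 CPM in this order (SD, n = 4 mice), and every pair of groups overlapped. The log2 fold change of NoFR over NoFC was 0.17 (SE 0.08, edgeR unadjusted p = 0.0498, adjusted p = 0.80). In a 2-sided exact permutation test of single members, where 4 mice against 4 allow no p below 0.0286, the smallest p was 0.0571, for *Atp1b2* in astrocytes of FR against NoFR mice and in pericytes of NoFR against NoFC mice.

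No other member had an unadjusted p under 0.05 in either class. *Fxyd1* in astrocytes was 264 ± 35.2, 253 ± 14.9, 260.0 ± 19.5 and 265 ± 23.3 CPM in NoFC, FC, NoFR and FR mice (SD, n = 4 mice). *Atp1b1* was 59.0 ± 11.6, 61.3 ± 12.7, 64.2 ± 11.6 and 60.4 ± 12.04 CPM, and *Atp1b3* was 37.1 ± 3.48, 39.7 ± 7.27, 37.6 ± 4.94 and 35.1 ± 5.52 CPM. The log2 fold changes of these 3 members lay between -0.20 and 0.09 over all pairs, with a largest SE of 0.19. In pericytes, *Atp1b3* was 156 ± 33.4, 128 ± 9.92, 129 ± 19.9 and 131 ± 21.3 CPM, and *Fxyd5* was 26.7 ± 11.6, 21.8 ± 16.5, 21.7 ± 9.66 and 17.6 ± 22.9 CPM from 21 to 46 UMIs a group. A change of the size of these errors was not detectable with 4 mice a group.

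**Figure D5:**
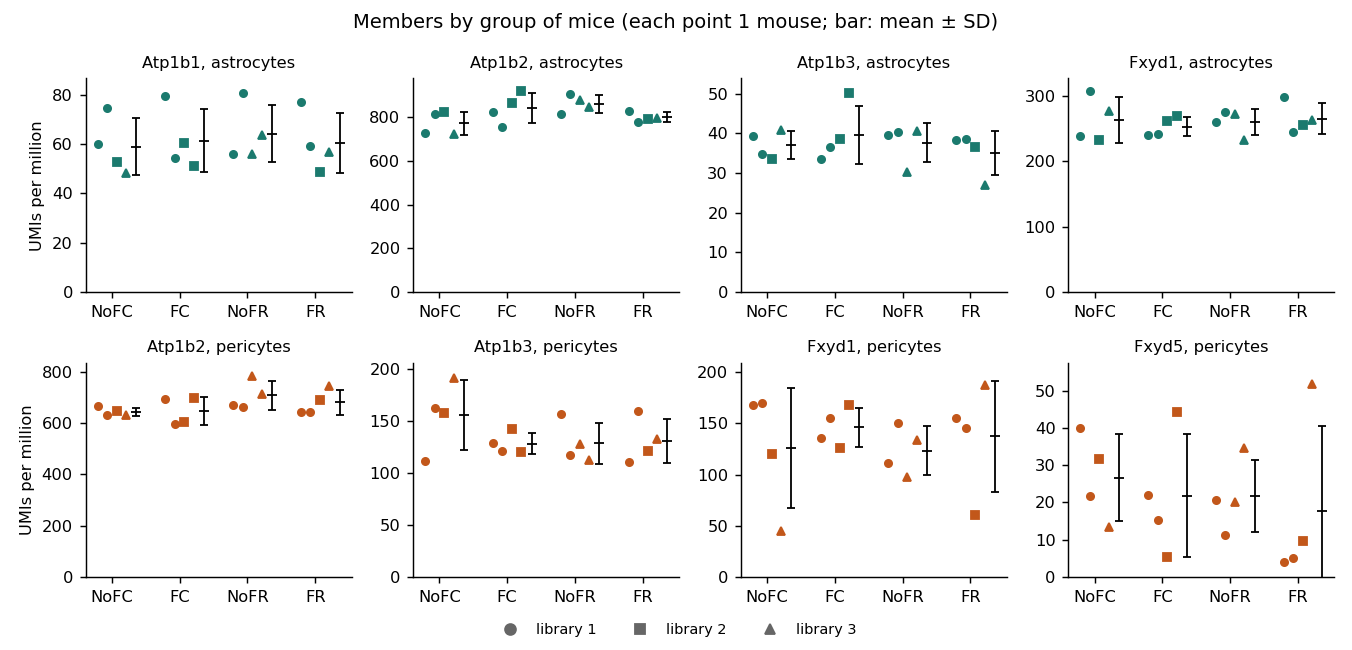
Level in CPM of the 4 members tested in astrocytes (top) and in pericytes (bottom) in the single mice of the NoFC, FC, NoFR and FR groups, with the mean and SD of 4 mice beside them. The mice of every pair of groups overlap, and the SD bar of *Fxyd5* in FR pericytes, 22.9 CPM around 17.6, is drawn down to 0.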

How the data were processed

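The authors deposited raw counts of UMIs, for genes and hashtags, in each barcode of 3 libraries, aligned to mm10 with Cell Ranger (version 3.0 per the submitters' processing notes, whereas the file headers name a later one). The files hold 5287, 3631 and 4628 barcodes, all of which were used, with no doublet filter (36469481, 27145742 and 27813585 astrocyte and 4417539, 3538589 and 3725828 pericyte UMIs), and the study's own filters and its removal of pericytes were tried only as far as the alternatives go. The members, the cell rule and the gene lists were chosen with earlier results of these data known. Counts were summed by library and class and tested with edgeR 4.0.16 (glmQLFTest, TMM, filterByExpr), leaving out the 4 genes of the cell rule. Astrocytes and pericytes of a library come from the same mice, so the library entered as a block. The deviations of the 2 classes from their means correlated at r = 0.05, 0.05 and 0.03 within libraries 1, 2 and 3, over 10717 genes.

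For mice, hashtags were called with HTODemux (Seurat 5.3.0, quantile 0.99) on barcodes with under 6% mitochondrial UMIs and at least 100 genes, and 2 hashtags with under 10 UMIs in every barcode of library 2 were dropped. Of 1594, 1143 and 1633 singlets, 1370, 812 and 878 carried the hashtag of 1 of the 16 listed mice. Mice with at least 10 cells of a class entered. DESeq2 1.42.0 was an alternative. Astrocytes were clustered with leidenalg 0.10.2 (resolution 0.4, 2000 variable genes without the members, 30 components, 20 neighbours). In thinning to 2000 UMIs, 111, 74 and 96 astrocytes and 20, 12 and 15 pericytes were too shallow and left out. Intervals are exact at 95% and cover counting error only. Genes were named by a rule that takes all members, the genes of 2 lists that passed the filter, the 3 most alike genes and the 3 leading genes of a subcluster, some of which are not reported here. Genes outside it are said to be chosen after their values were seen. The scripts were tested on simulated data with known fold changes.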

Additional observations from a re-analysis of the deposited data

Results flagged for a closer look

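In 45 sets of 4 mice, defined by member, class and group, 1 mouse stood far from the other 3 by Dixon's criterion in 4 sets. For normally distributed values, chance alone gives this in about 5% of sets, or 1 in 20. That rate does not apply to the flagged sets of *Fxyd5* in astrocytes and *Fxyd6* in pericytes, with at most 2 UMIs a mouse. *Atp1b3* in astrocytes was 30.3 CPM in NoFR mouse 3 and 39.5 to 40.5 CPM in the other NoFR mice, from 34 UMIs. *Fxyd5* in astrocytes was 3.75 CPM in NoFC mouse 1, from 2 UMIs, and 0 in the others. *Fxyd5* in pericytes was 51.8 CPM in FR mouse 4, from 16 UMIs, and 4.09 to 9.56 CPM in the other FR mice. *Fxyd6* in pericytes was 0 in FC mouse 4 and 2.73 to 3.15 CPM in the other FC mice, from 1 UMI in each of them. No comparison between groups of mice was called for these members. The mice flagged for *Atp1b3* and *Fxyd5* did enter the comparison of classes within mice, where all 16 mice had the same direction.

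*Atp1b2* was also counted in barcodes that neither class took in, which no comparison used. It was 460.0 CPM in the 850 such barcodes of library 1, 467 CPM in 464 of library 2 and 720.5 CPM in 1215 of library 3. Their median depth was 790.5, 900.0 and 725 UMIs, and their median mitochondrial share was 27.3%, 19.3% and 2.10%.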

How the results depend on the processing

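All 6 members kept their direction in astrocytes against pericytes under every alternative run. The call of *Fxyd6* was lost with DESeq2 (adjusted p = 0.14), without a filter on low counts (0.063), without barcodes called doublets by hashtag (0.081) and with library 1, 2 or 3 left out (0.093, 0.051 and 0.17). Its log2 fold change was -1.25 under the strict cell rule and -1.86 without barcodes with other cell types' markers, which moved that of *Atp1b1* to 4.37, and that of *Fxyd5* was -7.18 without library 1. The causes were not tested. The other calls held where the member was tested. With mice as replicates 4 members were called, since *Fxyd5* and *Fxyd6* did not pass the filter. Of all genes, 6626 of 8439 were called there, so these calls do not set the members apart. Without the replicate block 6 members were called, as with it, so the pairing by library changed no call of a member. Of 15361 genes, 12295 were called without the block and 12230 with it. Leaving out every barcode with 3 or more UMIs of other cell types' markers moved the difference in β share (astrocytes minus pericytes) to 7.70 percentage points for *Atp1b2* and -14.1 for *Atp1b3*, and in FXYD share to 13.6 for *Fxyd1*, -10.7 for *Fxyd5* and -2.90 for *Fxyd6*, beyond the spread between libraries. The share of cells with a UMI was larger in astrocytes for 2 members, and for 4 when 2 UMIs were asked for. The difference in that share for *Atp1b2* reversed to 0.204 points after thinning and to 5.96 at 2 UMIs, and for *Fxyd6* to 0.0479 at 2 UMIs. The highest and lowest *Atp1b1* level of a subcluster with at least 200 cells was 89.8 and 20.6 CPM at resolution 0.2 and 129 and 2.23 CPM at 0.8. These extremes did not lie in the same subclusters at each resolution. At 0.2 the lowest was led by *Zbtb16*, and the subcluster led by *Nkx6-2* had 34.2 CPM. At 0.8 the lowest was led by *Gria1*, from 7 UMIs, and the subcluster led by *Nkx6-2* had 12.2 CPM. The highest at 0.8 was led by *Nrg1*. Between groups of mice, 0 members were called under the alternatives summarized for each class. The strict cell rule and the fit without a filter on low counts were summarized in astrocytes only. Both were also run in pericytes, but their calls of members there are not reported here. The mitochondrial filter was not run separately because the hashtag calls already used it. The counts of *Fxyd5* and *Fxyd6*, the 4 mice a group and the share of barcodes with a usable hashtag limit what could be detected.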
